A study of Homo sapiens with 6 samples.

Results

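The 10 genes described here encode growth factor receptors that mark states of melanoma cells: ERBB3, EGFR, AXL, NGFR, PDGFRB, EDNRB, KIT, MET, FGFR1 and IGF1R. They were chosen by symbol, and all 10 were found among the 23368 genes of the count table. The samples were 6 libraries of total RNA from 1205Lu, an established line from a metastatic melanoma. In 3 flasks the cells were transiently transfected with 7.8 µg of the plasmid pCMV6-SOX10, which carries the neural crest transcription factor SOX10 under a viral promoter, and in 3 flasks with the same amount of the empty plasmid pCMV6 (the control). RNA was taken 24 h later from whole flasks of this line, so each value averages over the cells that took up plasmid and those that did not, and fewer cells with a transcript cannot be told apart from less of it per cell.

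Of these receptors 8 are of the receptor tyrosine kinase family. When a ligand binds, such receptors mostly phosphorylate each other in pairs and pass the signal to adaptor proteins and the RAS and PI3K pathways. NGFR binds neurotrophins and has no kinase domain, and EDNRB is a G protein-coupled receptor for endothelins. In melanoma, ERBB3, KIT and EDNRB are known from melanocytes and their neural crest precursors, where SOX10 is active. High AXL, EGFR and PDGFRB are known from dedifferentiated cells that tolerate inhibitors of BRAF, and NGFR marks a neural crest-like state.

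Assigned reads ranged from 2544420 to 4167393 in the SOX10 libraries and from 867917 to 2066520 in the controls, so a read was worth 0.24 to 0.393 CPM (reads per 1000000 assigned reads) in the former and 0.484 to 1.15 in the latter. The labels were compared with reads of SOX10 and of PMP2, the gene in the title of the series. SOX10 had 25.02 ± 8.45 against 19.6 ± 2.63 CPM with groups that overlapped (adjusted p 0.927 by edgeR). Its log2 fold change was 0.35, or 0.030 without SOX10 replicate 3, so the reads did not establish a rise of SOX10 itself. PMP2 had 21.3 ± 3.64 against 1.03 ± 0.98 CPM (SD, n = 3 each), from 0, 1 and 4 reads in the controls. It had enough reads for the test only through the SOX10 libraries, where it was high, so its direction is a description. All 10 melanoma markers had reads, with VIM the most abundant and MIA the rarest, at 8 reads in all. Their summed level was 18450 to 18926 CPM in the SOX10 libraries and 17620 to 18080 in the controls. This sum was mostly VIM, so it says little about the other markers of the list. Of the markers of other cells, keratinocyte and epithelial genes summed to 12.05 to 22.5 against 15.5 to 19.6 CPM, with SFN at 0 reads. Fibroblast genes summed to 128 to 199.1 against 136 to 174 CPM, mostly PDGFRA, with LUM at 0. Leukocyte and endothelial genes summed to 203 to 502 against 269 to 638 CPM, mostly CD68, with CD3E at 0. The part of such cells in the results was not tested.

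No receptor passed the test for a difference between SOX10 and control libraries. Of the 10 genes 9 had enough reads, and 0 had an adjusted p under 0.05 by the quasi-likelihood test of edgeR, against 12 of 10678 tested genes in the whole table (percent called 0.112, with 0.00937 higher and 0.103 lower). DESeq2 and limma-voom also called 0 of them, though DESeq2 gave no adjusted p for NGFR and EDNRB. At an unadjusted p under 0.05 there were 3, EGFR, MET and NGFR, all with lower values in the SOX10 libraries. NGFR entered the test only through the control libraries, where it was high, so it had to differ in this direction, and the count gives no support to a common one. Among all tested genes 6.23% had such a p in either direction and 3.52% had it with lower values. The groups did not overlap for 3 of the 9, namely MET and NGFR, both lower, and IGF1R, higher. That held for 11.8% of all tested genes (5.72% higher and 6.03% lower). The median log2 fold change of the 9 receptors, NGFR included, was -0.074, and over all tested genes it was 0.0076, which describes the receptors that passed the filter and supports no direction.

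**Figure D1:**
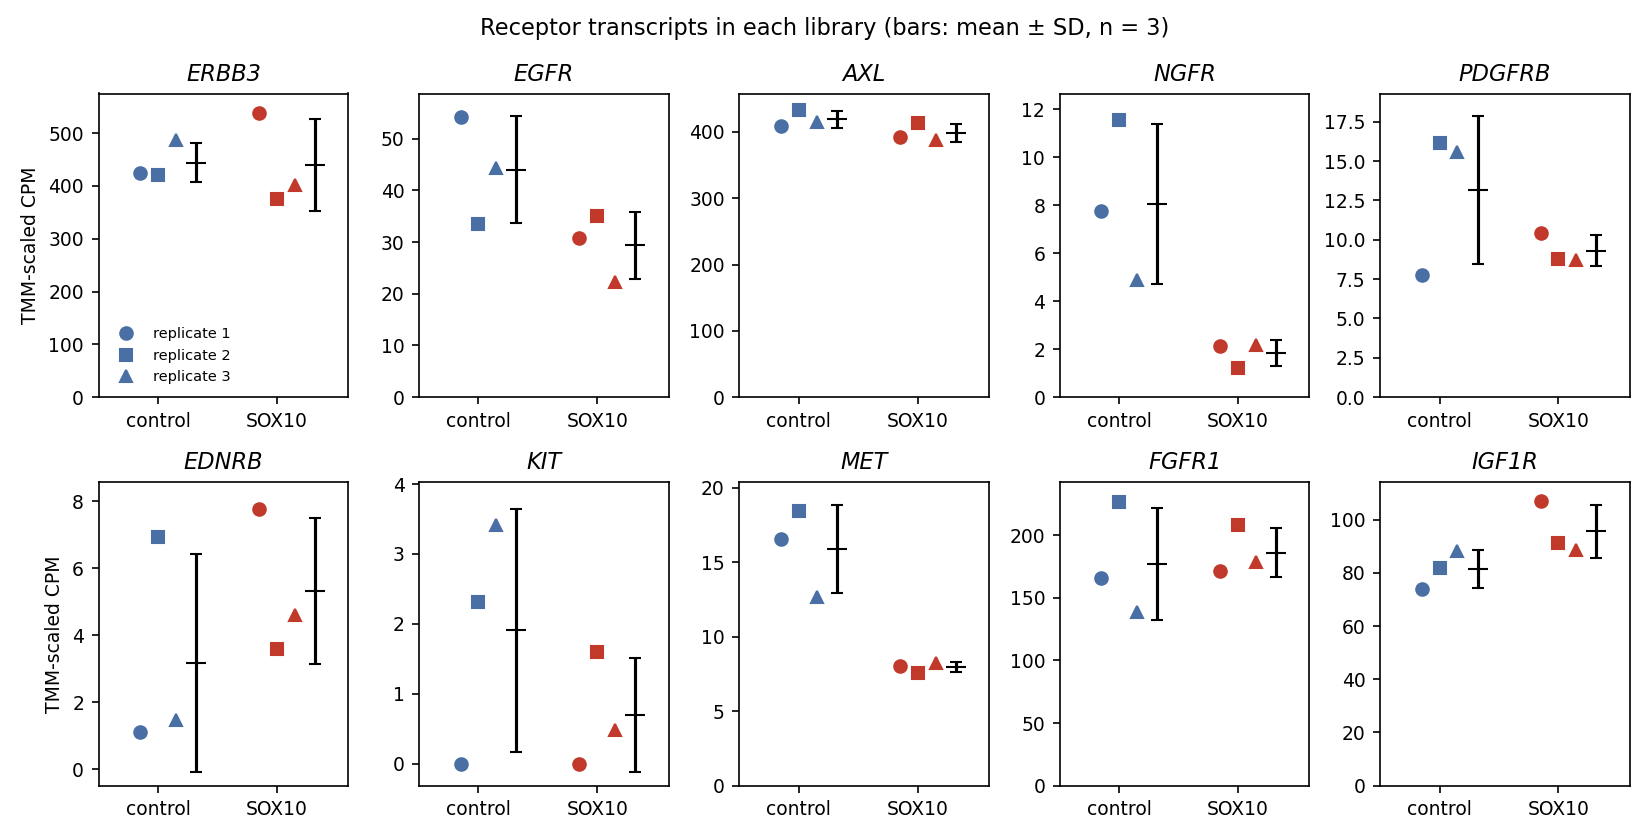
Scaled read counts (CPM, linear axes from 0 or just below) of each receptor in the 3 control and 3 SOX10 libraries, with mean and SD beside the points. MET and NGFR are lower in every SOX10 library than in every control library, while AXL stays between 388 and 434 CPM in all 6.

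To set the receptors in order, reads were divided by the length of the exons of each gene, in CPM per kilobase (RPKM). On that scale the levels in control cells spanned from AXL at 81.3 ± 2.49 RPKM to KIT at 0.343 ± 0.313 RPKM (SD, n = 3). AXL, ERBB3 at 49.1 ± 4.05 RPKM, FGFR1 at 12.8 ± 3.24 RPKM and IGF1R at 5.84 ± 0.509 RPKM led the order, and no 2 neighbours among these 4 overlapped in any of the 6 libraries. EGFR followed at 3.51 ± 0.828 RPKM, below every library of IGF1R. From EGFR down, each receptor overlapped with the next over the 6 libraries: MET at 2.26 ± 0.419, NGFR at 1.94 ± 0.805, PDGFRB at 1.84 ± 0.659, EDNRB at 0.564 ± 0.581 and KIT at 0.343 RPKM. The median tested gene stood at 6.03 RPKM in the controls. AXL thus exceeded 95.9% of the 9764 tested genes with a known length and ERBB3 92.7%, whereas EGFR exceeded 33.9%, EDNRB 1.89% and KIT 0.43%. In the SOX10 libraries the first 5 places were the same, and PDGFRB at 1.30 ± 0.137 RPKM took the place above MET at 1.13 ± 0.0478 and EDNRB at 0.949 ± 0.389 the place above NGFR at 0.443 ± 0.134 RPKM.

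**Figure D2:**
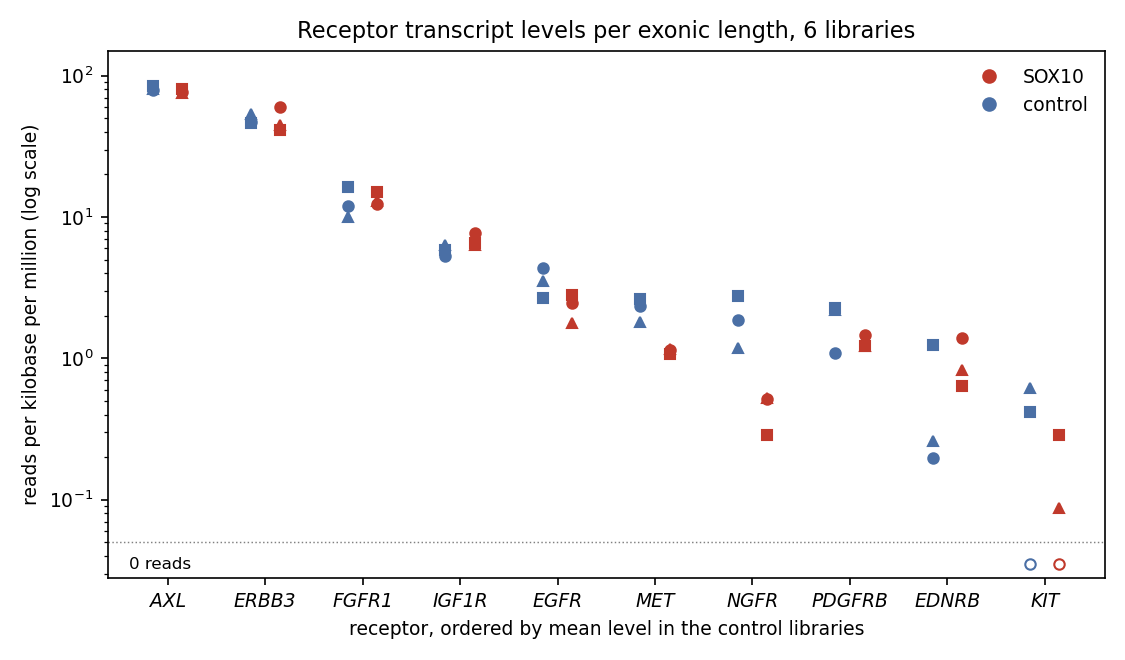
Level per kilobase of exon (RPKM, log axis) of the 10 receptors in each library, ordered by the control mean; circles, squares and triangles are replicates 1, 2 and 3, and open symbols are libraries with 0 reads. AXL and ERBB3 lead in all 6 libraries, and the control means of MET, NGFR and PDGFRB lie between 1.84 and 2.26 RPKM.

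AXL, a receptor of the TAM family activated by GAS6, had the lowest coefficient of variation of the 10 in both groups, 3.49% in the SOX10 libraries and 3.06% in the controls. It had 392.6, 414.02 and 388.03 CPM in SOX10 replicates 1 to 3 and 409.1, 433.7 and 414.95 CPM in control replicates 1 to 3. The groups overlapped, and the fold change of 0.95 had a 95% confidence interval from 0.827 to 1.09 (log2 fold change -0.074, SE 0.097, adjusted p 0.942 by edgeR). A change of AXL by more than about these bounds therefore lay outside the interval. Within groups, its reads varied no more than counting error, and chi-square per degree of freedom was 0.889 against a median of 3.70 for tested genes of at least 100 CPM.

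ERBB3, which has little kinase activity of its own and signals by pairing with other ERBB receptors when it binds neuregulin, was as deeply covered as AXL but far less even. It had 538, 376 and 402 CPM in the SOX10 libraries and 425, 421 and 486 CPM in the controls. SOX10 replicate 1 was the highest of all and control replicate 3 the next, and the controls lay within the range of the SOX10 libraries. Chi-square per degree of freedom within groups was 31.3, on 6359 reads. These same libraries had 93.5 and 97.0 reads assigned to no feature per 100 assigned reads, against 121 to 135 in the other 4. Whether such reads lay inside or between genes is not known here, and their part in the ERBB3 level was not tested. The fold change was 0.986 with a 95% confidence interval from 0.829 to 1.17 (adjusted p 0.996 by edgeR). Its log2 value of -0.021 (SE 0.12) was -0.20 without SOX10 replicate 1, -0.12 with both of these libraries left out, and above 0 without SOX10 replicate 2, SOX10 replicate 3 or control replicate 3.

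FGFR1, the receptor of basic fibroblast growth factor, and IGF1R, the receptor of insulin-like growth factors, were the next by level. FGFR1 stood at 171, 208 and 179 CPM in the SOX10 libraries and 166, 226 and 138 CPM in the controls. The control libraries spanned the whole range of the SOX10 libraries, and the fold change was 1.07 with a 95% confidence interval from 0.871 to 1.31 (adjusted p 0.95 by edgeR). FGFR1 also varied within groups beyond counting error (10.1 per degree of freedom). Its log2 fold change of 0.097 became 0.30 when control replicate 2 was left out and -0.075 when control replicate 3 was. IGF1R had 107, 91.3 and 88.7 CPM in the SOX10 libraries and 74.1, 81.9 and 88.3 CPM in the controls. Every SOX10 library was above every control library, but the lowest of the former and the highest of the latter differed by less than 1 CPM. The fold change of IGF1R was 1.16 with a 95% confidence interval from 0.952 to 1.42 (log2 fold change 0.22, SE 0.14, adjusted p 0.899 by edgeR). After thinning all libraries to the depth of the shallowest, its log2 fold change was 0.058, and it was 0.13 with SOX10 replicate 1 left out.

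MET, the receptor of hepatocyte growth factor, stood lower in every SOX10 library than in every control library but did not pass the test. It had 8.03, 7.58 and 8.24 CPM in the SOX10 libraries, from 30, 19 and 34 reads, and 16.6, 18.5 and 12.7 CPM in the controls, from 15, 16 and 26 reads. The SOX10 libraries lay closer together than counting error gives, and all of them were below the lowest control. Their coefficient of variation was 4.23%, against 19.0% from counting error, so their closeness is no measure of precision. Chi-square per degree of freedom within groups was 0.418. The fold change was 0.519 with a 95% confidence interval from 0.322 to 0.837, a log2 value of -0.94 (SE 0.33), an unadjusted p of 0.00925 and an adjusted p of 0.526 by edgeR. It was lower in all 15 alternative fits, with log2 values from -1.36 after thinning to -0.83 without control replicate 2, and adjusted p-values from 0.48 to 1. Per length and within each library, AXL exceeded MET 64.4 to 74.6 times in the SOX10 libraries and 32.1 to 44.7 times in the controls, and these ranges did not overlap. AXL stayed between 388 and 434 CPM, so this ratio restates the MET values and is no second observation.

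EGFR, the first member of the ERBB family, was also lower on average, though its groups overlapped. The SOX10 libraries had 30.8, 35.1 and 22.3 CPM and the controls 54.2, 33.4 and 44.4 CPM. SOX10 replicate 2 was above control replicate 2, and the other libraries of each group were apart. The fold change was 0.659 with a 95% confidence interval from 0.48 to 0.904, a log2 value of -0.60 (SE 0.22), an unadjusted p of 0.0119 and an adjusted p of 0.584 by edgeR. The log2 value ran from -0.77 to -0.43 in the 15 alternative fits, with an unadjusted p of 0.0658 without SOX10 replicate 3 and 0.0773 without control replicate 1. GENCODE release 29 places 1.49% of the exonic bases of EGFR in the antisense gene EGFR-AS1, and whether the counting used strand is not known here. Per length, ERBB3 exceeded EGFR 14.8 to 25.01 times in the SOX10 libraries and 10.9 to 17.4 times in the controls, and these ranges overlapped.

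The sequences before the transcription start are shown for MET and EGFR, the receptors with the lowest unadjusted p of those matched in the promoter table of RefSeq (GRCh38.p14), and for the only window of a receptor that held a SOX motif. The table matched 7 of the 10 receptors with 10 windows, and had no entry for ERBB3, NGFR or FGFR1. Windows are the 250 bases before an annotated start, written 5′ to 3′ on the strand of the gene. The MET window is chr7:116671946-116672195 and the first of 2 EGFR windows chr7:55018767-55019016, both on the plus strand. Capitals in these 2 mark the GC box GGGCGG or its complement CCGCCC.
MET: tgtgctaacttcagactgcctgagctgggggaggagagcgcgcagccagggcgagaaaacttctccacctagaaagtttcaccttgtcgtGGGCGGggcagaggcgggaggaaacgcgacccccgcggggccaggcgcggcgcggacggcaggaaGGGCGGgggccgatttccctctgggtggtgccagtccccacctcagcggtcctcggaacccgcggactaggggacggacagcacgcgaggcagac
EGFR: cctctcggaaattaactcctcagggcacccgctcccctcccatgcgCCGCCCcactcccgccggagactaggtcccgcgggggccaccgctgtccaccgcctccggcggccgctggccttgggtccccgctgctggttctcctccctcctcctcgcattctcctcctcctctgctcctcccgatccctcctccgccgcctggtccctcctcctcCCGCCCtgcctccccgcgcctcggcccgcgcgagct
The window before an alternative start of AXL is chr19:41226505-41226754 on the plus strand, and capitals mark the SOX motif.
AXL: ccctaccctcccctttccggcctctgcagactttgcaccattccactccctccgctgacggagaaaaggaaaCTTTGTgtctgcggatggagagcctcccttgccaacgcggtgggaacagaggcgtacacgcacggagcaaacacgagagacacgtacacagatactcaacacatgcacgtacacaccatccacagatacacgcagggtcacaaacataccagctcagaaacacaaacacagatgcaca
The printed MET and EGFR windows had 68.4% and 73.6% of bases as G or C, against a median of 58.0% over all 35116 windows, and each held 2 GC boxes. The window before the other start of EGFR in the table, not printed, had 38.8% and 0 GC boxes. Each of the 7 matched receptors had a window with a GC box, 7 of the 10 windows in all, and 42.6% of all windows held it. The core letters of SOX binding sites, ACAAAG or CTTTGT, were in 1 of the 10 windows, that of AXL, and in 13.7% of all windows. The related letters ACAATG or CATTGT were in none of the 10 and in 9.29% of all windows. The motifs were searched on both strands and share no letters in these windows. A match is a string of letters and not a measured binding site.

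NGFR, the low-affinity receptor of neurotrophins, had the lowest log2 fold change of the 9 tested receptors, on 47 reads in all. Its SOX10 libraries stood at 2.14, 1.20 and 2.18 CPM and its controls at 7.74, 11.5 and 4.88 CPM. Summed by group this was 20 reads against 27, although the SOX10 libraries were deeper. Every SOX10 library was below every control library. The fold change was 0.26 with a 95% confidence interval of 0.12 to 0.562, an unadjusted p of 0.00145 and an adjusted p of 0.292 by edgeR. Only its control libraries reached the level of the low-count filter, so NGFR entered the test through the group where it was high, and its direction and p are a description. Over the 13 alternative fits that gave a value, adjusted p-values, of which DESeq2 gave none, ran from 0.284 to 0.859. NGFR was not tested after thinning or with the filter of 5 CPM in 3 libraries. Reads varied within groups about as counting error gives, at a chi-square of 1.20 per degree of freedom against a median of 1.67 for tested genes under 20 CPM. Of its exonic bases 27.1% lie in other genes of GENCODE release 29, and how many of its reads fall there was not tested.

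PDGFRB, the receptor of platelet-derived growth factors B and D, had 10.4, 8.77 and 8.72 CPM in the SOX10 libraries and 7.74, 16.1 and 15.6 CPM in the controls. Control replicate 1 was the lowest of all 6 libraries, so the groups overlapped. The log2 value of -0.53 (SE 0.34) had 0.899 as adjusted p by edgeR, and became -0.76 when control replicate 1 was left out and -0.34 when control replicate 3 was. EDNRB, the receptor through which endothelin 3 acts on melanocyte precursors, had 7.77, 3.59 and 4.60 CPM in the SOX10 libraries and 1.11, 6.92 and 1.46 CPM in the controls. Control replicate 2, with 6 reads, was above SOX10 replicates 2 and 3. The fold change of EDNRB had a 95% confidence interval from 0.808 to 4.79, so changes between these bounds could not be told apart at this depth and spread. Within groups its chi-square per degree of freedom was 3.43, against a median of 1.67 for tested genes under 20 CPM. KIT, the receptor of stem cell factor that melanocytes need to survive, was too rare for the test. Its reads were 0, 4 and 2 under SOX10 and 0, 2 and 7 in the controls, and 0 reads allow up to 0.804 CPM in SOX10 replicate 1 and 3.24 CPM in control replicate 1. Both groups included a library without a read. Over the group totals the ratio of rates, SOX10 over control, was 0.246 with an exact binomial 95% interval from 0.072 to 0.773, which covers counting error only and not the spread between flasks.

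**Figure D3:**
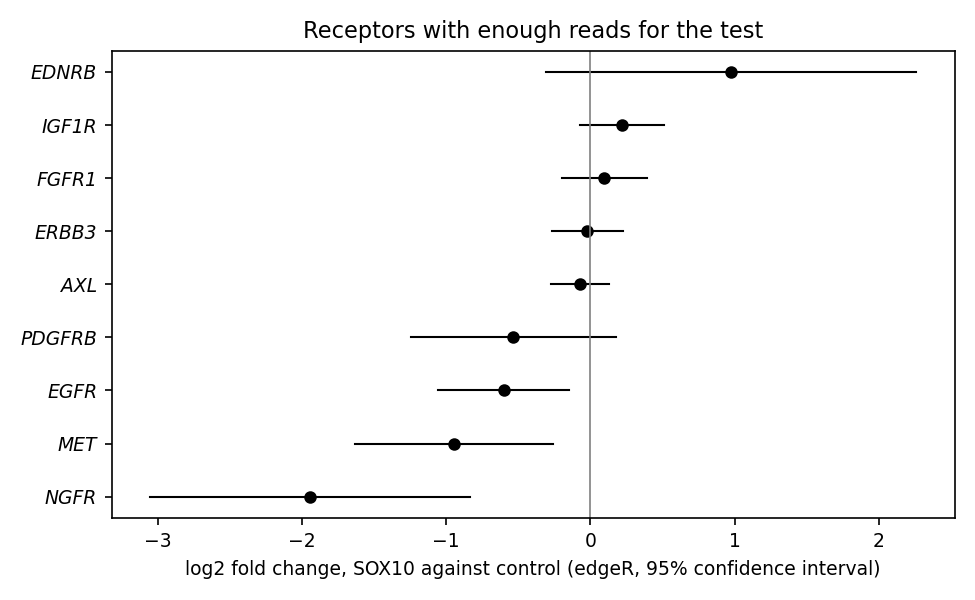
Log2 fold change of SOX10 against control libraries (points) with its 95% confidence interval (lines) for the 9 tested receptors, by edgeR. The intervals of EGFR, MET and NGFR lie below 0 before any adjustment for 10678 tests, those of AXL and ERBB3 are narrow and include 0, and that of EDNRB is the widest.

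**Figure D4:**
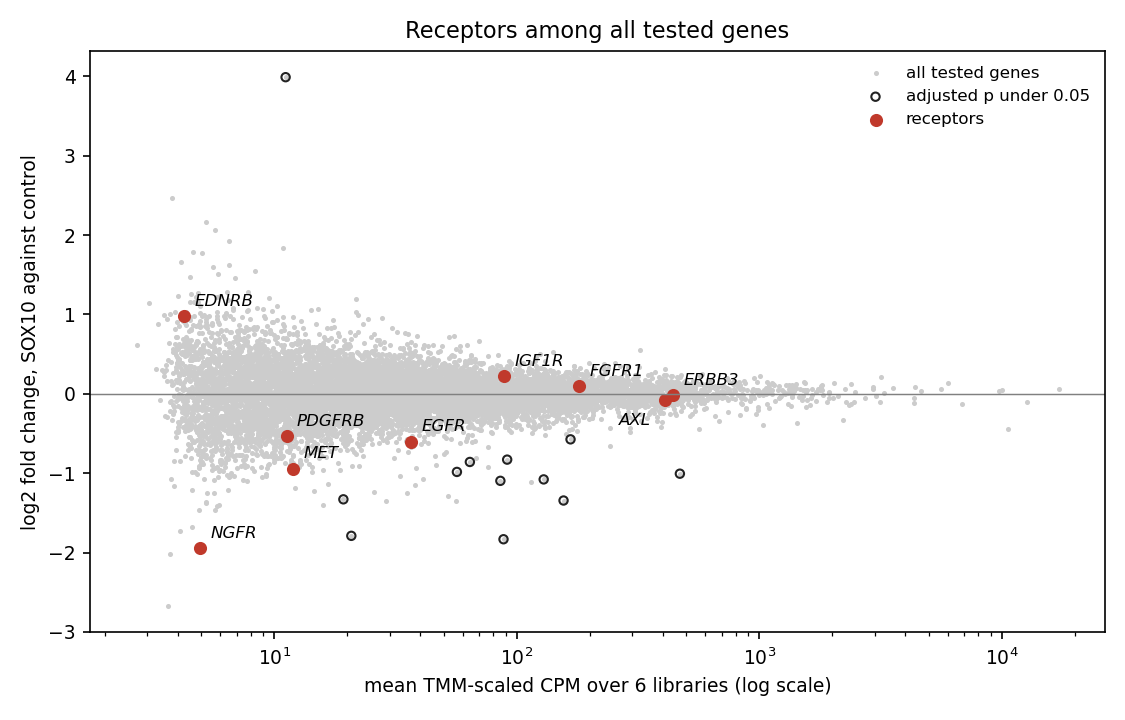
Log2 fold change against mean scaled CPM (log axis) for all 10678 tested genes (grey), the 12 with an adjusted p under 0.05 (open circles) and the 9 tested receptors (red). NGFR, at -1.94, lies at the lower edge of the grey cloud at low CPM, and ERBB3 and AXL lie near 0 at high CPM.

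Ligands of these receptor families were mostly rare in 1205Lu cells, and none passed the test. Of 35 ligand genes 13 were tested and 0 were called, against 0.112% of all tested genes. PDGFD and PROS1 were the 2 with an unadjusted p under 0.05 by edgeR, which 6.23% of all tested genes had. PDGFD entered the test only through the SOX10 libraries, so this count supports no direction. The median log2 fold change of the tested ligands was -0.025, against 0.0076 over all tested genes. TGFA had the highest CPM, not divided by length, of the tested ligands of EGFR, at 157 ± 22.1 against 153 ± 11.1 CPM (SD, n = 3 each). NRG1, the neuregulin that ERBB3 binds, stood at 47.8 ± 13.9 against 58.4 ± 11.7 CPM, with a log2 fold change of -0.29 (SE 0.20). Leaving out SOX10 replicate 2 took it to -0.52, and leaving out SOX10 replicate 3 to -0.11. FGF2, a ligand of FGFR1, had 36.9 ± 6.69 against 37.0 ± 9.99 CPM.

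PDGFD, a ligand of PDGFRB, entered the test only through the SOX10 libraries, where it was high, so its direction and p are a description. Its reads were 18, 21 and 36 under SOX10 and 1, 2 and 5 in the controls, or 7.31 ± 2.16 against 1.95 ± 0.734 CPM (SD, n = 3 each). The groups did not overlap, with a log2 fold change of 1.79 (SE 0.56), an unadjusted p of 0.00402 and an adjusted p of 0.421 by edgeR. Its log2 value ran from 1.58 to 2.29 over 11 alternatives, with adjusted p-values from 0.236 to 0.92. PROS1, or protein S, which activates the TAM receptors TYRO3 and MERTK, had 33.7 ± 5.72 against 22.9 ± 5.04 CPM, or 0.57 on the log2 scale (SE 0.23) with 0.689 as adjusted p by edgeR.

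By CPM, not divided by length, the ligand of AXL and those of the neurotrophin receptors were near the limit of the test or well below FGF2. GAS6 stood at 3.70 ± 2.17 against 3.20 ± 2.20 CPM, and its log2 fold change of 0.30 became 0.73 when control replicate 1 was left out and 0.0075 when control replicate 2 was. BDNF had 15.4 ± 5.49 against 15.7 ± 0.812 CPM and NTF3 3.74 ± 1.68 against 6.22 ± 1.57 CPM, with a log2 fold change of -0.72 (SE 0.49) for NTF3, which became -0.47 with SOX10 replicate 2 left out and -1.05 with SOX10 replicate 1 left out. KITLG, which encodes stem cell factor, had 14.01 ± 4.04 against 11.8 ± 4.15 CPM (SD, n = 3 each). No ligand of MET, EDNRB or IGF1R had enough reads. HGF had 28 reads over all 6 libraries, the 3 endothelins together had 10 reads in the SOX10 and 3 in the control libraries, and IGF1 and IGF2 together had 11 and 3.

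Receptors related to these 10 did not pass the test either. Of 23 genes 11 were tested, 0 were called and 0 reached an unadjusted p under 0.05, which 6.23% of all tested genes did. Their median log2 fold change was 0.066, against 0.0076 over all tested genes. DESeq2 and limma-voom called 0 as well. ERBB4, the ERBB receptor that also binds neuregulins and has an active kinase, had 9.90 ± 1.97 against 5.69 ± 2.05 CPM, with groups that did not overlap and a log2 fold change of 0.72 (SE 0.41, adjusted p 0.878 by edgeR). TYRO3, a relative of AXL, had 13.5 ± 2.19 against 9.91 ± 3.65 CPM. SORT1, or sortilin, which binds the precursors of neurotrophins together with NGFR, had 73.3 ± 21.97 against 56.8 ± 12.9 CPM, and its log2 fold change of 0.40 (SE 0.21) was 0.22 without control replicate 3 and 0.63 without SOX10 replicate 1. PDGFRA, the partner of PDGFRB, stood at 128 ± 37.1 against 117 ± 15.4 CPM (SD, n = 3 each).

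Downstream of the receptors, all 29 adaptors and effectors had enough reads, and 0 were called or had an unadjusted p under 0.05 by edgeR, nor were any called by DESeq2 or limma-voom. Among all tested genes 6.23% had such an unadjusted p. The median log2 fold change of the 29 genes was 0.021, against 0.0076 over all tested genes, and they ranged from -0.31 to 0.53. GAB1, a docking protein through which MET and EGFR recruit PI3K, was at the upper end, with 17.0 ± 2.57 against 10.9 ± 4.03 CPM and a log2 fold change of 0.53 (SE 0.31), or 0.32 when control replicate 1 was left out and 0.89 when control replicate 3 was. PLCB4, a phospholipase that acts below G protein-coupled receptors, was at the lower end with -0.31 (SE 0.23), or -0.18 without control replicate 1. SOS1, which loads RAS with GTP, had 71.0 ± 1.64 against 83.8 ± 10.3 CPM and groups that did not overlap, with an adjusted p of 0.882 by edgeR. IRS1, the main substrate of IGF1R, had 58.3 ± 15.7 against 49.01 ± 4.38 CPM.

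Among genes of receptor shedding, turnover and inhibition 32 of 34 were tested and 0 were called. An unadjusted p under 0.05 was reached by 1 of them, and by 6.23% of all tested genes. Their median log2 fold change was 0.0087, against 0.0076 over all tested genes. The gene with such a p was ERRFI1, which encodes MIG6, an inhibitor that binds the kinase of EGFR. It had 128 ± 4.05 against 104 ± 15.8 CPM (SD, n = 3 each), with groups that did not overlap, a log2 value of 0.30 (SE 0.13) and 0.75 as adjusted p by edgeR. PTPRK, a receptor phosphatase, had 39.7 ± 1.35 against 30.7 ± 1.70 CPM with a log2 fold change of 0.39 (SE 0.19), which was -0.0038 after thinning. LRIG2, of a family of membrane proteins that modulate receptor kinases, had 0.69 (SE 0.36), and CBLB, a ubiquitin ligase of receptors, 0.56 (SE 0.31), with adjusted p-values of 0.836 and 0.871.

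The IGF binding proteins hold insulin-like growth factors away from IGF1R or carry them to it. By CPM, not divided by length, IGFBP3 and IGFBP2 were among the higher genes of the pathway lists. TIMP3, of the list of shedding, turnover and inhibition, was higher, at 2372 ± 403 against 2555 ± 490 CPM. Of 9 genes in the list of IGF binding proteins 7 were tested and 0 were called. An unadjusted p under 0.05 was found for 1 of them, and for 6.23% of all tested genes. Their median log2 fold change was -0.16, against 0.0076 over all tested genes. IGFBP3 stood at 516 ± 117 against 572 ± 85.7 CPM and IGFBP2 at 400.3 ± 58.3 against 421 ± 54.2 CPM. The gene with an unadjusted p under 0.05 was PAPPA, a protease that cleaves IGF binding proteins, at 151 ± 20.2 against 196 ± 40.4 CPM (SD, n = 3 each). The log2 value of PAPPA was -0.40 (SE 0.14), and its adjusted p by edgeR 0.526. IGFBP5, with 5.08 ± 1.27 against 5.32 ± 4.06 CPM, had a log2 fold change of -0.29 that became -0.64 when control replicate 2 was left out and 0.56 when control replicate 3 was.

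**Figure D5:**
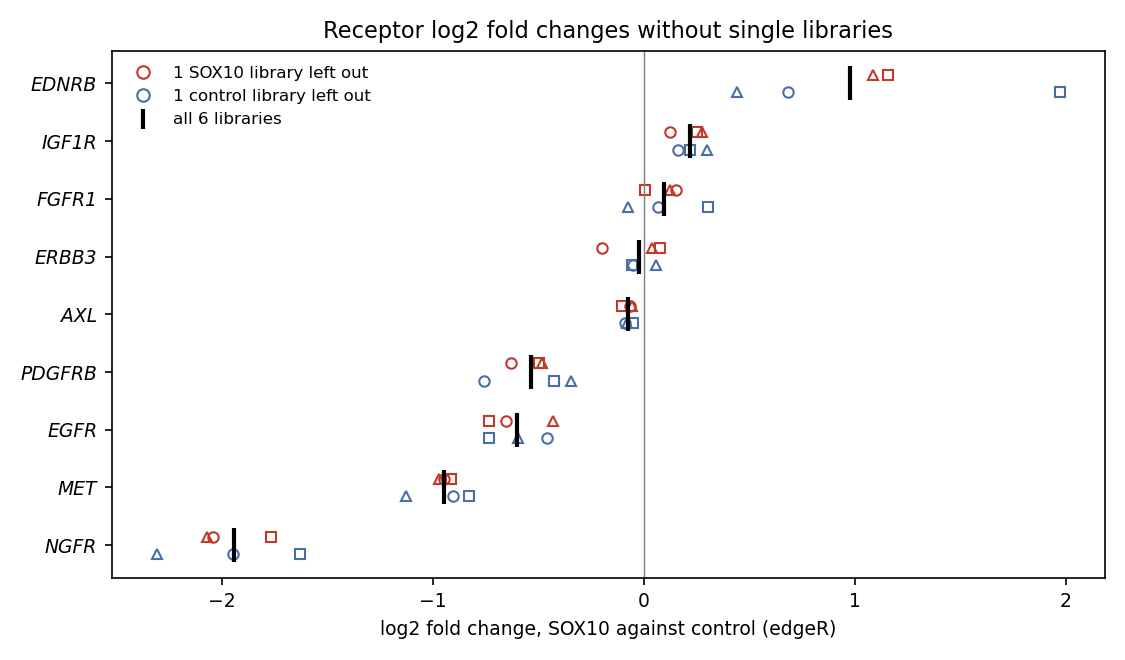
Log2 fold change of each tested receptor by edgeR with all 6 libraries (black bar) and with 1 library left out (open symbols; red for a SOX10 library, blue for a control, circles, squares and triangles for replicates 1, 2 and 3). EGFR, MET and PDGFRB stay below 0 in each fit shown, ERBB3 and FGFR1 lie on both sides of 0, and EDNRB spans from 0.45 to 1.97 in the 5 fits that tested it.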

How the data were processed

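Total RNA of 6 flasks was sequenced from 125 ng per library. TopHat 1.4.0, HTSeq, DESeq and the build hg19 are in the submitters' processing notes, with no role stated. The gene annotation and strand setting are not known here. Raw read counts per gene symbol were deposited by the authors. The 5 class rows of the table entered neither library sizes nor tests. They held 39.4% to 46.9% of records assigned to no feature, 17.7% to 19.1% not unique and 0.435% to 0.551% ambiguous.

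The members, lists and tests were chosen with earlier results of these data known. The main test was edgeR 4.0.16 (R 4.3.3, quasi-likelihood, TMM, filterByExpr with minimum count 10 and total 15, no covariate), adjusted by Benjamini and Hochberg over 10678 genes, threshold 0.05. It was also run on simulated counts that gave all genes the same spread. That run does not show how the test behaves at the unequal spread of the real genes. Fold changes use edgeR's prior count of 0.125 and standard errors come from the F statistic. CPM are TMM-scaled. Lengths are unions of exons in GENCODE release 29 (found for 91.4% of tested genes). A count of 0 allows 3 reads, and such floors and intervals cover counting error only. Within groups libraries differed beyond sampling noise (chi-square per degree of freedom 1.94 to 7.44). The labels call the flasks biological replicates. Alternatives were other scalings and filters, DESeq2 1.42.0, limma-voom (limma 3.58.1), the replicate number as a block, thinning to 867917 reads and leaving out libraries.

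Named genes are the 10 receptors, SOX10 and PMP2, in each pathway list up to 4 tested genes with the smallest p, and the tested ligand of each receptor with the highest CPM. Outside this rule, TIMP3 is named for its high CPM. Some cell type markers are named for their level or lack of reads, and untested ligands for their few reads.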

Additional observations from a re-analysis of the deposited data

How the results depend on the processing

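Receptors called stayed at 0 in all 15 alternatives, as did the calls in each of the 5 pathway lists. However, NGFR had a value in only 13 of the alternatives and EDNRB in 11, and DESeq2 gave neither an adjusted p. Over all genes the 12 calls were 48 with no low-count filter, 7 when the replicate number was a block, 7 with both SOX10 replicate 1 and control replicate 3 left out, and 6 to 18 without single libraries. Of 129 receptor values under alternatives 123 kept their direction. These include 13 of NGFR, which entered the test through the group where it was high, so they support no direction. The values of ERBB3 changed sign with no low-count filter (0.012) and ranged from -0.20 to 0.079 without single libraries. Those of FGFR1 changed sign with both libraries left out (-0.025) and ranged from -0.075 to 0.30. Of 390 values of the other named genes 374 kept their direction. For the reason given for NGFR, the 15 of PMP2 and 11 of PDGFD among these support none either. The exceptions without single libraries ranged from -0.022 to 0.37 for PDGFRA, -0.15 to 0.049 for IGFBP2, -0.075 to 0.13 for TGFA, -0.29 to 0.23 for BDNF, -0.18 to 0.13 for FGF2, -0.64 to 0.56 for IGFBP5 and -0.014 to 0.59 for KITLG. After thinning PTPRK had -0.0038, TGFA -0.011 and FGF2 0.083, and FGF2 had 0.0046 with no low-count filter. With no low-count filter the median log2 fold change over all genes in the fit was 0.051, against 0.0076 in the main fit. The cause of the changes of sign was not tested. Deviations from the group mean correlated at -0.030, -0.033 and -0.14 between same-numbered libraries. SOX10 replicate 1 correlated best with control replicate 3 (0.15). Deviations from a mean of 3 libraries must balance within the group, so these correlations cannot decide on pairing. The labels do not say that the number marks a shared day, so the numbers were not read as pairs. With the block 0 receptors were called and MET had -0.95, EGFR -0.63 and NGFR -1.94. With the longest transcript as length, levels were higher (AXL 88.5, ERBB3 75.0, FGFR1 28.4 RPKM in controls) and the order of the 10 was the same, as it was with library totals. NGFR, EDNRB and KIT had the fewest reads, with 47, 67 and 15 in all. Chi-square per degree of freedom within groups was 3.43 for EDNRB and 2.45 for KIT, so depth was not their only limit.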
